A study of Mus musculus with 12 samples.

Results

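The ATPases and core subunits of the SWI/SNF chromatin remodelling complex comprised 8 of the 24060 genes listed in RNA sequencing data of 12 rhabdoid tumors from mice. They were chosen by name, as the alternative ATPases Smarca4 and Smarca2, the paired subunits Smarcc1 and Smarcc2, the alternative subunits Smarcd1, Smarcd2 and Smarcd3, and Smarce1. All tumors arose in P0-CreC;Smarcb1 flox/flox mice kept on an FVB/N background, in which Cre under the P0 promoter is active in early neural crest cells and their descendants and removes the floxed Smarcb1 alleles there. There was no tumor without the deletion and no normal tissue, and the age of each animal is not stated, so tumors could only be compared with each other. Bulk RNA, depleted of ribosomal RNA, was sequenced from 4 tumors labelled Retro-orbital, 3 labelled Cheek, 3 labelled Meninges, 1 labelled Vestibular N and 1 labelled Trigeminal N. The identifiers of 3 pairs of tumors began alike (Cheek 1 and Meninges 1, Cheek 2 and Cheek 3, Retro-orbital 3 and Trigeminal N 1), which left 9 different identifiers, and whether the tumors of a pair came from the same animal is not stated.

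SWI/SNF complexes use the energy of ATP to slide or evict nucleosomes and thereby open DNA to transcription factors. Each complex carries 1 ATPase, either Brg1 (the product of Smarca4) or Brm (Smarca2), which share most of their sequence and exclude each other. The ATPase sits on a core in which Baf155 (Smarcc1) and Baf170 (Smarcc2) form the scaffold, Baf60a, Baf60b or Baf60c (Smarcd1, Smarcd2 and Smarcd3) bridge to transcription factors, Baf57 (Smarce1) binds DNA through a high mobility group domain, and Baf47 (Smarcb1) contacts the nucleosome. Loss of SMARCB1 is the defining lesion of rhabdoid tumors, and the ATPases and the other core subunits are usually intact in them.

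Values are RPKM (reads per kilobase of gene length, corrected for sequencing depth), which are per length and so allow levels of different genes to be set side by side. The RPKM rested on 13206168 to 57128422 fragments per tumor (median 27929720.5), and on 266 to 14192 fragments for a member in a tumor. Vim, the intermediate filament gene that the tumors stain for, was between 114 RPKM in the Vestibular N tumor and 3001 RPKM in Retro-orbital tumor 1. The paper also reports strong FABP7 staining, and little or no GFAP, S100 and neurofilament staining in tumor cells. The RNA levels did not all follow this pattern. Fabp7 was 0.06 to 0.40 RPKM in Retro-orbital tumors 1 and 4 and Cheek tumors 2 and 3, and at most 44.8 RPKM in the others. Gfap reached 260 RPKM and S100b 32.5 RPKM in Meninges tumor 3, and Nefl 412 RPKM in Cheek tumor 2. Whether the stained tumors were those sequenced is not stated. Cheek tumors 2 and 3 were the most similar pair, with a chi-square of 26.8 per degree of freedom against 266 to 766 for the other pairs within a location, and they were kept as separate tumors. Smarcb1 itself, the targeted gene, was listed at 1.70 to 6.31 RPKM (mean 4.21 ± 1.36 SD, n = 12), below every member in every tumor. This value sums all exons of the gene and all cells of the piece, and the exons outside the deletion and the cells that never expressed Cre cannot be told apart from tumor cells in it. For the same reason, fewer cells of a type and less RNA per cell cannot be separated in any value below.

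The stretches of DNA before the transcription starts are shown for 4 members, the ATPase paralogs, whose levels varied largely apart, and Smarcc2 and Smarcd3, whose levels were the most alike. They are from RefSeq on GRCm38.p6, read 5′ to 3′ on the strand of the gene, from 250 bases before the start and only up to the first base annotated as an exon of the gene. RefSeq promoters were found for 7 of the 8 members, all but Smarce1. Capitals mark the GC box (GGGCGG) and the ETS core (CGGAAG) on either strand.
Smarca4, chr9:21615919-21616168, plus strand: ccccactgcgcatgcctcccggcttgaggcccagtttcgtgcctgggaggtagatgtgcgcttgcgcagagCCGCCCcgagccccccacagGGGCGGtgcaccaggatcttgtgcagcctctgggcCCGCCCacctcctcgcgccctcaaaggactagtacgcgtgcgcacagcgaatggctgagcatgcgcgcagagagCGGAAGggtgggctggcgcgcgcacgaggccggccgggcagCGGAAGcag
Smarca2, chr19:26604910-26605049, plus strand: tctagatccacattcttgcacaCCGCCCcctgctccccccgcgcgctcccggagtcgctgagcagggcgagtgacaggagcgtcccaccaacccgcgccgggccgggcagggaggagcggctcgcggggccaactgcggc
Smarcc2, chr10:128458986-128459235, plus strand: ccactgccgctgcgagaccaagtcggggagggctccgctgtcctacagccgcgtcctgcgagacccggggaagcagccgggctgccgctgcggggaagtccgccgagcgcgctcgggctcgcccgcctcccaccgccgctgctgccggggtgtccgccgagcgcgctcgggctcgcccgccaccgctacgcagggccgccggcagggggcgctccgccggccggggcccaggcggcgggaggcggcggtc
Smarcd3, chr5:24602013-24602252, minus strand: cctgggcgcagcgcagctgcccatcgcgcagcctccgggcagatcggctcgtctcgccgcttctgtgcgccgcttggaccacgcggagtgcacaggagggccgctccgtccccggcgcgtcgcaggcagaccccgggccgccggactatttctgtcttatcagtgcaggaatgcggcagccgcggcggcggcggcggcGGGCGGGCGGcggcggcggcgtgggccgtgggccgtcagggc
The Smarcd3 stretch lies inside the span that GENCODE M21 gives the gene, because the longest annotated form starts further upstream.

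The 4 promoters shown were rich in CpG dinucleotides. Over the full 250 bases, Smarcc2 held 40 CpG and Smarcd3 38, more than 98.7% and 98.1% of the 32851 promoters of the table, whose median was 6. Smarca2 held 28 and Smarca4 held 25. Smarcd2, which is not shown, held 4, more than 37.8% of the promoters. Like that of Smarcd3, the stretches of Smarcd2 and Smarcc1 lie inside the spans that GENCODE M21 gives these genes. Of the 250 bases of Smarcd2, 167 lie from its first annotated exon base onward. The GC box was found in 6 of the 7 member promoters, 3 times in Smarca4 and not in Smarcc2, and in 32.7% of all promoters. The ETS core was found in 3 of the 7 (Smarca4, Smarcc1 and Smarca2) and in 13.6% of all promoters. The TATA box (TATAAA) was found in 1 of the 7, Smarcd2, and in 12.4% of all, and the CCAAT box (CCAAT) in none of the 7 and in 33.8% of all. Overlapping matches were counted, and a match of letters is given as a description only.

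All 8 genes were well above 1 RPKM in every tumor, and none was low in any location. In order of their means over the 12 tumors, Smarce1 (52.3 ± 14.6 RPKM, SD, n = 12) and Smarca4 (50.04 ± 11.5) were highest, followed by Smarcc2 (38.0 ± 11.1), Smarcd2 (34.6 ± 11.0), Smarcc1 (24.0 ± 11.3), Smarca2 (20.6 ± 13.2), Smarcd3 (17.1 ± 6.39) and Smarcd1 (9.72 ± 2.14). For most neighbours in this order, the mean log2 ratio within tumors was smaller than its SD over the 12 tumors. That describes the spread and is not a test of whether the genes differ. Smarce1 was above Smarca4 in 8 of 12 tumors, with a mean log2 ratio of 0.06 ± 0.27 (SD), and Smarcc1 was above Smarca2 in 6 of 12. The mean log2 ratio was larger than its SD only for Smarca4 over Smarcc2 (0.42 ± 0.38, higher in 10 of 12) and for Smarcd3 over Smarcd1 (0.75 ± 0.64, higher in 10 of 12). The latter order turned with the gene length, and with the longest transcripts Smarcd1 was above Smarcd3 in 8 of 12 tumors. The genes also differed in how much they moved between tumors. Smarca2 had the largest coefficient of variation, 64.1%, and its highest value was 8.15 times its lowest. Its SD on the log2(RPKM + 1) scale was larger than that of 83.6% of the genes that reached 1 RPKM in at least 3 tumors. Smarcc1 followed, with a coefficient of 47.0% and a 4.74-fold range, and the other 6 members varied between 22.0% and 37.5%. The place of Smarcc1 rested on Retro-orbital tumor 1. Without it, the coefficient of Smarcc1 was 28.8% and its range 2.80-fold, below the 39.2% of Smarcd3. The SD of Smarca4 and of Smarcd1 lay low among all genes, at the 22.4 and 17.1 percentiles.

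**Figure D1:**
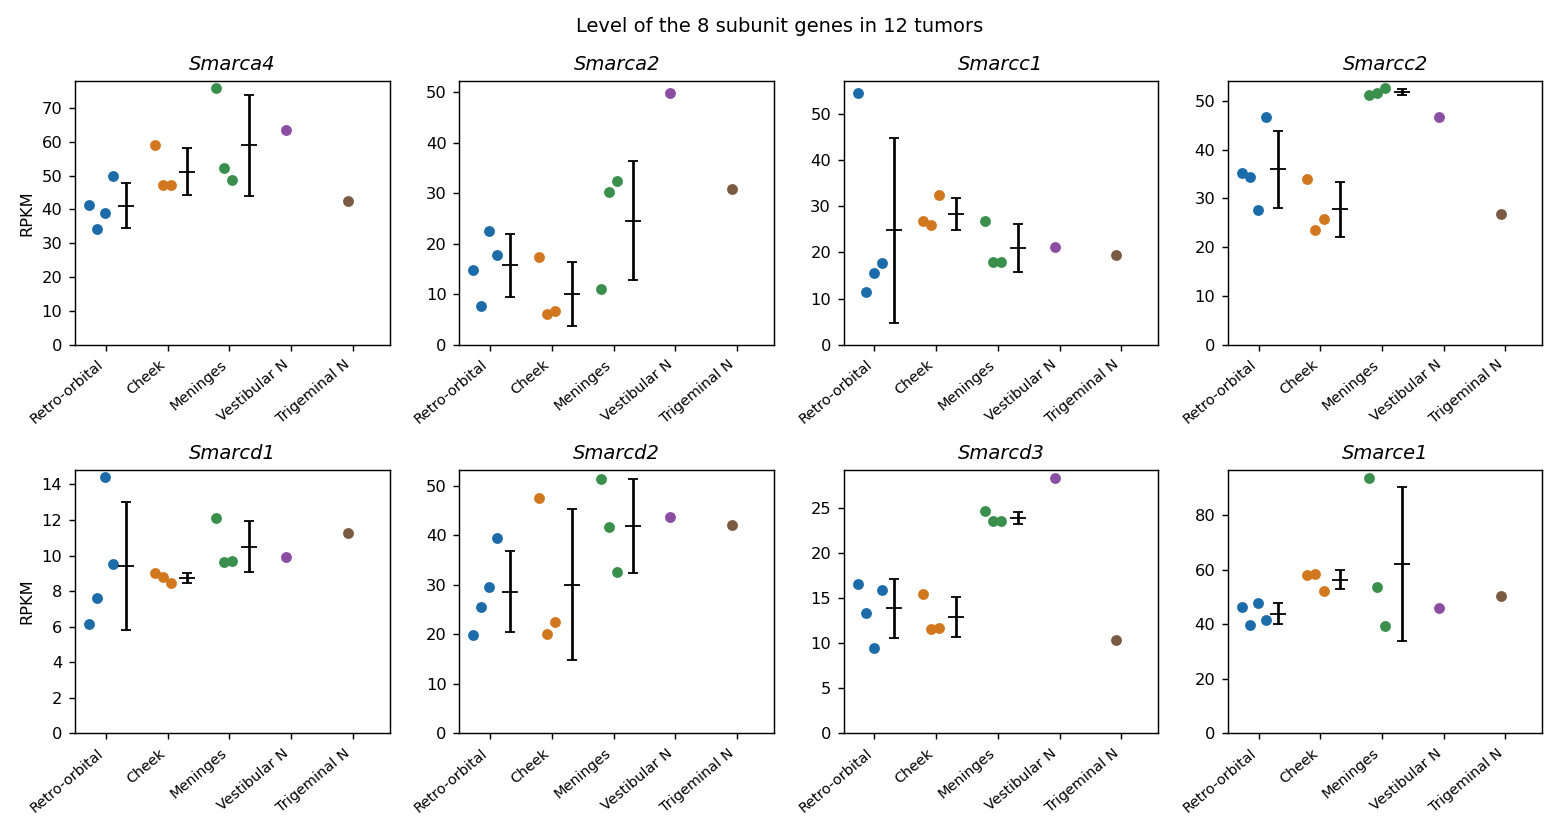
RPKM (vertical axes, linear and starting at 0) of the 8 members in the 12 tumors by location, 1 point per tumor. Black lines give the mean ± SD of locations with at least 3 tumors. The 3 Meninges tumors lie above all Retro-orbital and Cheek tumors for Smarcc2 and Smarcd3, and 1 Retro-orbital tumor, at 54.6 RPKM, stands apart for Smarcc1.

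The first question was which ATPase the tumors transcribed, since Brg1 and Brm are alternatives within the complex. Smarca4 (chromosome 9, 21616169 to 21704230, GRCm38) encodes Brg1. It was 41.3, 34.2, 39.0 and 49.97 RPKM in Retro-orbital tumors 1 to 4, 59.1, 47.2 and 47.1 in Cheek tumors 1 to 3, and 75.8, 52.1 and 48.7 in Meninges tumors 1 to 3. The Vestibular N tumor had 63.6 RPKM and the Trigeminal N tumor 42.4. The groups overlapped, and the highest value was 2.22 times the lowest. Smarca2 (chromosome 19, 26605050 to 26778322) encodes Brm. It was 14.8, 7.60, 22.6 and 17.9 RPKM in the Retro-orbital tumors, 17.4, 6.13 and 6.64 in the Cheek tumors, and 11.0, 30.3 and 32.4 in the Meninges tumors. It was highest in the tumors of which there was only 1, with 49.9 RPKM in the Vestibular N tumor, and 30.9 in the Trigeminal N tumor was exceeded otherwise only by Meninges tumor 3. The lowest values, 6.13, 6.64 and 7.60 RPKM, belonged to Cheek tumors 2 and 3 and Retro-orbital tumor 2.

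Smarca4 exceeded Smarca2 in 12 of 12 tumors. Its share of the summed RPKM of both ATPases ran from 56.0% in the Vestibular N tumor to 88.5% in Cheek tumor 2 (mean 72.5% ± 12.2 SD, n = 12). On the log2 scale, the ratio of Smarca4 over Smarca2 was 1.53 ± 0.96 (SD, n = 12), which differed from 0 (exact two-sided sign-flip permutation test, p = 0.00049, adjusted over 5 ratios p = 0.00081), and that p is the smallest that 12 tumors allow. The call depended on the length by which Smarca2 was divided. A short Smarca2 transcript of 1962 bases is annotated beside the full one, and with the shortest RefSeq transcript of each gene in place of the length in the files, the mean ratio was 0.14 (exact permutation test, adjusted p = 0.62), with Smarca4 above Smarca2 in 7 of 12 tumors. The lengths in the files, 6376 bases for Smarca4 and 6086 for Smarca2, were recovered from the values and are close to those of the longest transcripts. The sum of both ATPases ranged from 41.8 RPKM in Retro-orbital tumor 2 to 114 RPKM in the Vestibular N tumor, with a coefficient of variation of 27.3%.

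**Figure D2:**
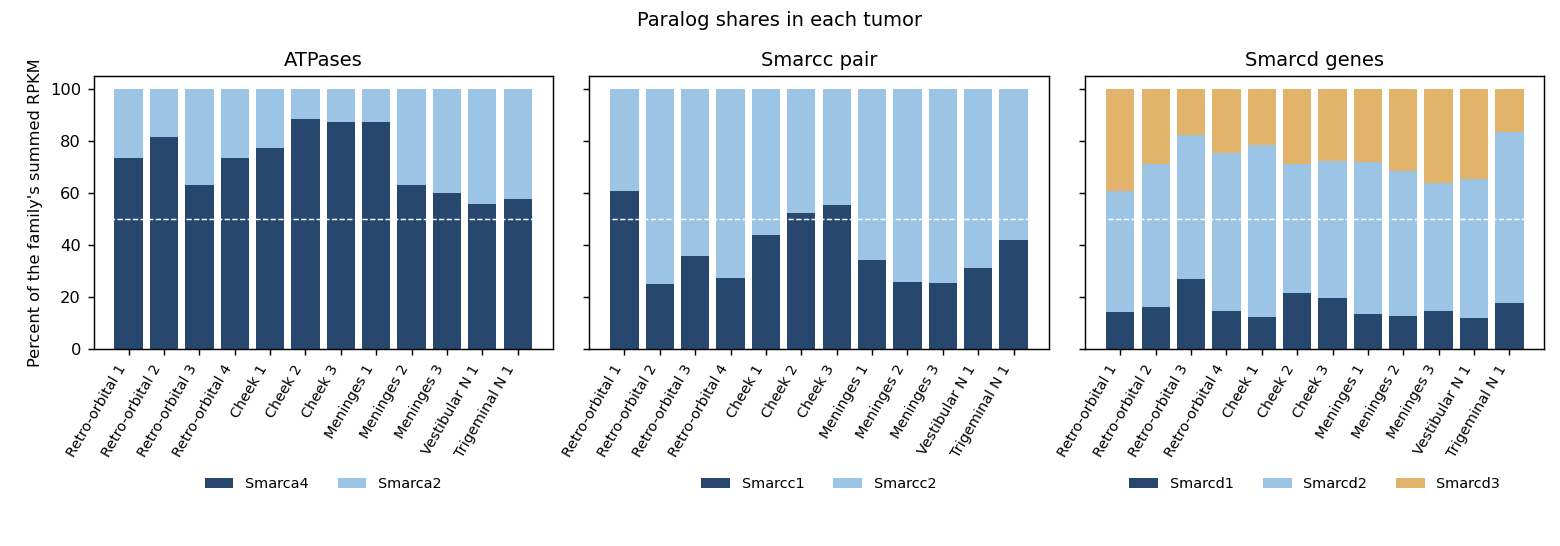
Share of each paralog (vertical axis, percent of the family's summed RPKM) in each of the 12 tumors (horizontal axis) for the ATPases, the Smarcc pair and the Smarcd genes. The white dashed line marks 50 percent. Smarca4 takes more than 50 percent of the ATPase sum in every tumor, from 56.0% to 88.5%, and Smarcc1 more than 50 percent of its pair in 3 tumors.

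Smarca4 and Smarca2 showed no detectable relation across the 12 tumors. Pearson's r of log2(RPKM + 1) was 0.22 (permutation test, p = 0.50, adjusted over 5 pairs p = 0.77) and Spearman's rho 0.26 (permutation test, p = 0.42, adjusted p = 0.70). Without the 2 tumors farthest from the median of Smarca4, r was 0.30 (permutation test, p = 0.40). Within the Meninges tumors, the one with the highest Smarca4 had the lowest Smarca2. By location, the log2 ratio was 2.50 ± 0.64 (SD, n = 3) in Cheek tumors, 1.47 ± 0.56 (SD, n = 4) in Retro-orbital tumors and 1.38 ± 1.21 (SD, n = 3) in Meninges tumors. The range of these means, 1.12, was not larger than expected from the spread between tumors (exact permutation test over 4200 labellings, p = 0.24, adjusted over 5 ratios p = 0.58). It was 1.82 without Meninges tumor 1 (exact permutation test, adjusted p = 0.19) and 2.03 between location medians in place of means (exact permutation test, adjusted p = 0.071). The tumors labelled Vestibular N and Trigeminal N, at 0.35 and 0.45, had the lowest ratios of all and entered no test.

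The genes whose pattern over the 12 tumors was most like that of Smarca4 were Maz (Pearson's r 0.96), Fbxl19 (0.94) and Zc3h18 (0.94), out of 15020 other genes that reached 1 RPKM in 3 or more tumors. Those most like Smarca2 were Gstk1 (0.95), Zfp26 (0.93) and Zfp369 (0.93). Zfp26 moved over a narrower range than Smarca2, from 5.48 to 10.3 RPKM. These coefficients are the highest of a very large number over tumors that share a pool of reads and, in part, an identifier, and are given without a test. Smarca2 itself stood at place 7348 in the list for Smarca4.

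The scaffold subunits Smarcc1 (chromosome 9, 110117708 to 110240178) and Smarcc2 (chromosome 10, 128459248 to 128490482) differed in which of them prevailed. Smarcc1, which encodes Baf155, was 54.6, 11.5, 15.5 and 17.7 RPKM in Retro-orbital tumors 1 to 4. It was 26.8, 26.0 and 32.3 in the Cheek tumors, 26.9, 18.0 and 17.9 in the Meninges tumors, 21.1 in the Vestibular N tumor and 19.4 in the Trigeminal N tumor. Retro-orbital tumors thus held both the highest and the lowest 3 values of Smarcc1. Smarcc2, which encodes Baf170, was 35.2, 34.4, 27.6 and 46.7 RPKM in the Retro-orbital tumors and 34.0, 23.5 and 25.7 in the Cheek tumors. In the Meninges tumors it was 51.2, 51.6 and 52.5 RPKM, above each of the other 9 tumors and with an SD of 0.69. The Vestibular N tumor had 46.7 RPKM and the Trigeminal N tumor 26.9.

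Smarcc2 was above Smarcc1 in 9 of 12 tumors, and Smarcc1 was above Smarcc2 in Retro-orbital tumor 1 and Cheek tumors 2 and 3. The log2 ratio of Smarcc1 over Smarcc2 was -0.72 ± 0.78 (SD, n = 12; exact two-sided sign-flip permutation test, p = 0.012, adjusted p = 0.012). Without Retro-orbital tumor 1 the mean was -0.84. It was 0.05 ± 0.35 (SD, n = 3) in Cheek tumors, -0.79 ± 1.0 (SD, n = 4) in Retro-orbital tumors and -1.33 ± 0.35 (SD, n = 3) in Meninges tumors, and the range of 1.37 did not pass the test (exact permutation test, p = 0.13, adjusted p = 0.58). The sum of both genes ranged from 43.1 to 89.8 RPKM. Its coefficient of variation was 23.0%, beside 47.0% for Smarcc1 and 29.2% for Smarcc2. Without Retro-orbital tumor 1, that of Smarcc1 was 28.8%, and whether the genes offset each other was not tested by these coefficients. No relation between the 2 genes was detectable (Pearson's r -0.17, permutation test, p = 0.61, adjusted p = 0.77; Spearman's rho -0.18, permutation test, p = 0.57, adjusted p = 0.72; r -0.31 without the 2 tumors farthest from the median of Smarcc1, permutation test, p = 0.37).

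Of the Smarcd genes, Smarcd2 was the highest in 12 of 12 tumors, and Smarcd1 the lowest in 10 with the gene lengths in the files. Smarcd1 (chromosome 15, 99702129 to 99713991), which encodes Baf60a, was 6.16, 7.61, 14.4 and 9.53 RPKM in the Retro-orbital tumors. It was 9.03, 8.78 and 8.45 in the Cheek tumors, 12.1, 9.64 and 9.71 in the Meninges tumors, 9.90 in the Vestibular N tumor and 11.3 in the Trigeminal N tumor. Its lowest and its highest value were both Retro-orbital, so the groups overlapped, except that all Meninges tumors lay above all Cheek tumors.

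Smarcd2 (chromosome 11, 106263179 to 106272972) encodes Baf60b. It was 19.9, 25.6, 29.5 and 39.5 RPKM in the Retro-orbital tumors, 47.5, 20.1 and 22.5 in the Cheek tumors, 51.4, 41.6 and 32.5 in the Meninges tumors, 43.6 in the Vestibular N tumor and 42.0 in the Trigeminal N tumor. Cheek tumor 1 had more than both other Cheek tumors together. Smarcd3 (chromosome 5, 24590818 to 24624411) encodes Baf60c, known for its part in heart and muscle gene programs. It was 16.7, 13.4, 9.45 and 16.0 RPKM in the Retro-orbital tumors and 15.4, 11.5 and 11.7 in the Cheek tumors. The 3 Meninges tumors, at 24.7, 23.5 and 23.6 RPKM, lay above all of these, as did the Vestibular N tumor at 28.3. The Trigeminal N tumor had 10.3.

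Smarcd2 took 55.7% ± 6.17 of the summed Smarcd RPKM, Smarcd3 27.8% ± 7.0 and Smarcd1 16.5% ± 4.43 (SD, n = 12). All 3 log2 ratios differed from 0. Smarcd2 over Smarcd3 was 1.04 ± 0.52 (SD, n = 12; exact two-sided sign-flip permutation test, adjusted p = 0.00081). Smarcd1 over Smarcd2 was -1.78 ± 0.41 (SD, n = 12; exact permutation test, adjusted p = 0.00081), and Smarcd1 over Smarcd3 was -0.75 ± 0.64 (SD, n = 12; exact permutation test, adjusted p = 0.0049), with Smarcd1 above Smarcd3 only in Retro-orbital tumor 3 and the Trigeminal N tumor. The last of these turned with the length used. The longest annotated Smarcd3 transcript has 3774 bases against 1725 in the files, and with the longest transcripts Smarcd1 over Smarcd3 was 0.30 (exact permutation test, adjusted p = 0.13).

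**Figure D3:**
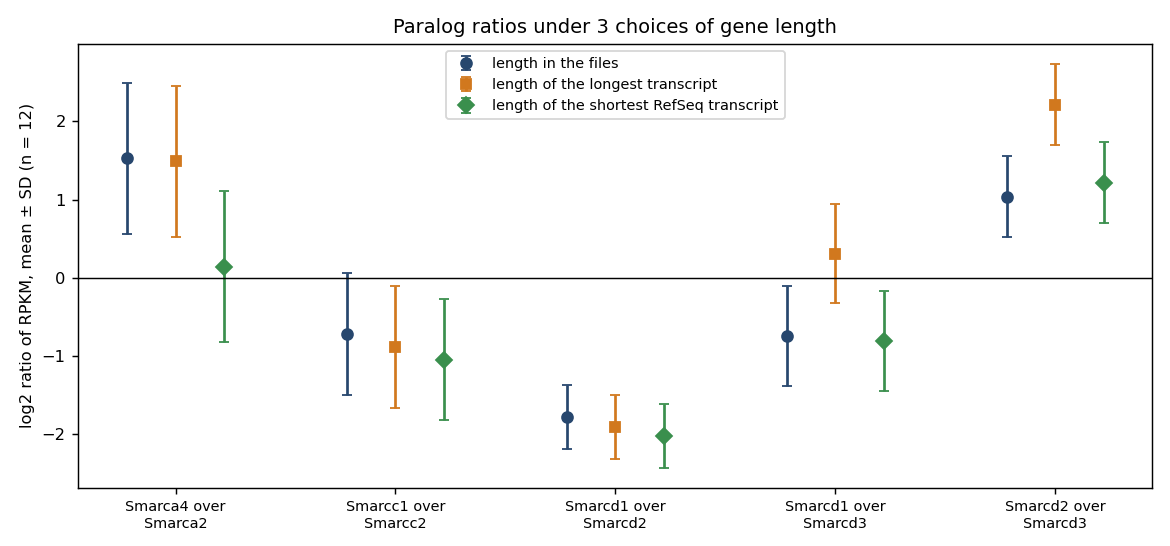
Mean log2 ratio of RPKM (vertical axis, ± SD, n = 12 tumors) of the 5 paralog pairs (horizontal axis) with 3 choices of gene length. With the shortest RefSeq transcripts, Smarca4 over Smarca2 lies at 0.14 in place of 1.53, and with the longest transcripts Smarcd1 over Smarcd3 lies at 0.30 in place of -0.75, while the other 3 pairs keep their sign.

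None of the 3 Smarcd ratios passed the test between locations. Smarcd1 over Smarcd3 was -1.28 to -1.02 in Meninges tumors and -0.77 to -0.39 in Cheek tumors, while Retro-orbital tumors, at -1.42 to 0.60, overlapped with both. The location means ranged over 0.35 for Smarcd1 over Smarcd2 (exact permutation test, p = 0.56, adjusted p = 0.66), 0.65 for Smarcd1 over Smarcd3 (exact permutation test, p = 0.35, adjusted p = 0.58) and 0.34 for Smarcd2 over Smarcd3 (exact permutation test, p = 0.66, adjusted p = 0.66). Smarcd1 and Smarcd2 leaned the same way, with a Pearson's r of 0.56 (permutation test, p = 0.059, adjusted p = 0.26) and a Spearman's rho of 0.64 (permutation test, p = 0.028, adjusted p = 0.14), and r was 0.71 without the 2 tumors farthest from the median of Smarcd1 (permutation test, p = 0.020). Without Retro-orbital tumor 3, which had the highest Smarcd1, r was 0.78 (permutation test, adjusted p = 0.0081), so the call depended on that tumor. For Smarcd2 and Smarcd3, r was 0.49 (permutation test, p = 0.11, adjusted p = 0.26), rho 0.43 (permutation test, p = 0.17, adjusted p = 0.42) and r 0.52 without the 2 farthest tumors (permutation test, p = 0.12). For Smarcd1 and Smarcd3, r was -0.07 (permutation test, p = 0.83, adjusted p = 0.83), rho 0.08 (permutation test, p = 0.82, adjusted p = 0.82) and r 0.38 without the 2 farthest tumors (permutation test, p = 0.28).

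Smarce1 (chromosome 11, 99209047 to 99231017), the DNA-binding subunit with no paralog among the members, was the most abundant member on average. It was 46.5, 39.8, 47.7 and 41.6 RPKM in the Retro-orbital tumors and 58.0, 58.7 and 52.3 in the Cheek tumors, so all Cheek tumors lay above all Retro-orbital tumors. The Meninges tumors had 93.7, 53.8 and 39.3 RPKM, the highest and the lowest value of the series, the Vestibular N tumor 45.9 and the Trigeminal N tumor 50.4. The spread of the Meninges tumors (SD 28.2, n = 3) came from Meninges tumor 1, which also had the highest Smarca4 and Smarcd2 of all tumors.

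The second question was whether the members differed with the location of the tumor. None of the 8 passed the F test of limma over the 3 locations with at least 3 tumors (14745 genes tested, Benjamini-Hochberg), where 0.0407% of all genes passed. At an unadjusted p under 0.05, 2 of 8 members were found, Smarcc2 and Smarcd3, each with an adjusted p of 0.22, beside 14.3% of all genes. A limma voom fit on the recovered fragments, chosen after seeing the data, also called 0 members, with 2 of 8 at an unadjusted p under 0.05 beside 11.1% of all genes. In the pairwise contrasts of the same limma fit, 0 members passed in Cheek against Retro-orbital (0.0271% of all genes passed), 0 in Meninges against Retro-orbital (0.0203%) and 0 in Meninges against Cheek (0.0475%). At an unadjusted p under 0.05, the members numbered 0 in the first of these contrasts (12% of all genes), 3 in the second (9.14%) and 3 in the last (17%). Against adjusted shares this small, a count of 0 of 8 does not set the members apart from other genes.

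The largest differences were those of the Meninges tumors. Smarcc2 was 51.8 ± 0.69 RPKM in Meninges tumors (SD, n = 3), 35.97 ± 7.89 in Retro-orbital tumors (SD, n = 4) and 27.7 ± 5.55 in Cheek tumors (SD, n = 3). On the log2(RPKM + 1) scale, Meninges against Cheek was 0.89 (standard error 0.21, limma adjusted p = 0.12). Smarcd3 was 23.9 ± 0.63 RPKM in Meninges tumors (SD, n = 3), 13.9 ± 3.26 in Retro-orbital tumors (SD, n = 4) and 12.9 ± 2.21 in Cheek tumors (SD, n = 3), with a difference of 0.86 (standard error 0.22, limma adjusted p = 0.14) against Cheek and 0.77 (standard error 0.21, limma adjusted p = 0.44) against Retro-orbital. For Smarca2, Meninges against Cheek was 1.22 with a standard error of 0.53 (limma adjusted p = 0.28), the largest estimate of any member and the least precise. With the identifiers of the tumors as a block (below), it turned to -0.37 (limma adjusted p = 0.38). Without Cheek tumor 1, 1 member passed in Meninges against Cheek, Smarcc2 (difference 1.05, limma adjusted p = 0.040), in a fit that also called 527 of 14530 genes in place of 7. That fit left only Cheek tumors 2 and 3, the most similar pair, whose identifiers began alike, so its p may rest on tumors that are not independent. Without Cheek tumor 2 or 3, 0 genes were called in this contrast, and the lowest limma adjusted p of a member was 0.51 and 0.48.

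A fit that took the shared identifiers as a block gave other counts. Between locations it called 3 members (Smarcc2, Smarcd3 and Smarce1) and 2802 of all genes, and in Meninges against Cheek 4 members (the same 3 and Smarca4) and 4243 of all genes. Its within-identifier correlation of 0.93 was estimated from the 2 identifiers that recur among these 10 tumors, one of them that of Cheek tumors 2 and 3. Under it, Smarcc2 differed between Meninges and Cheek by 0.62 (limma adjusted p = 0.0027) and Smarcd3 by 0.67 (limma adjusted p = 0.0016). Whether an identifier marks an animal is not stated, and the labels do not say that they are blocks.

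**Figure D4:**
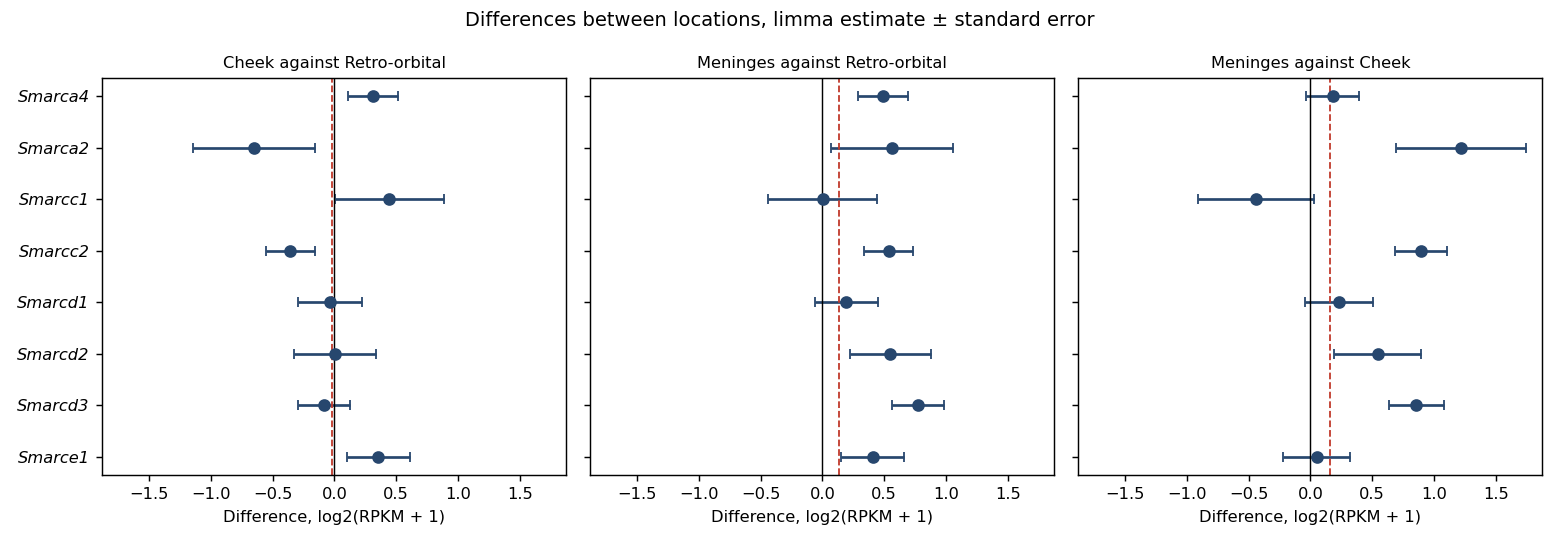
Difference in log2(RPKM + 1) between locations (horizontal axis, limma estimate ± standard error) for the 8 members (vertical axis) in the 3 contrasts of the 10 tumors. The red dashed line is the median over the 14745 genes tested. For Meninges against Cheek, Smarcc2 lies at 0.89 and Smarcd3 at 0.86, and no member passed an adjusted p of 0.05.

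Groups did not overlap for 2 of the 8 members in Meninges against Retro-orbital (Smarcc2 and Smarcd3, both higher in Meninges), where this held for 9.23% of all genes. It held for 3 of 8 in Meninges against Cheek (Smarcc2, Smarcd1 and Smarcd3, all higher in Meninges) against 28.7% of all genes, and for 1 of 8 in Cheek against Retro-orbital (Smarce1, higher in Cheek) against 11.1%. The 3 Meninges tumors lay above all 7 others of the test for Smarcc2 and Smarcd3 and for 3.13% of all genes. Most estimates of the members were positive in Meninges tumors, though how many depended on the setting. All 8 estimates were positive against Retro-orbital (median 0.52), where the median of all genes tested was 0.13, and 7 of 8 against Cheek (median 0.39 against 0.16 for all genes), Smarcc1 being the exception. When the tumors were scaled to equal median RPKM, the medians of all genes moved to -0.01 and -0.05. The members were fitted with a separate equal-median scaling that shifted values by other amounts, so their medians cannot be set beside these. In that fit the medians of the members were 0.43 and 0.28, and 7 and 6 of 8 estimates were positive. Smarcc1 turned negative against Retro-orbital and Smarce1 against Cheek. Without Meninges tumor 1, 5 of 8 were positive against Cheek (median 0.26; Smarca4, Smarcc1 and Smarce1 negative), and with the block 6 of 8 (Smarca2 and Smarcc1 negative). Without Cheek tumor 1 the median was 0.60. Cheek and Retro-orbital tumors differed in no common direction, with 4 members higher and 4 lower and a median of -0.02, equal to that of all genes.

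Some markers of glia moved with these differences. Of the markers of myelinating glia, 3 are reported here. Mbp was 16.6 to 26.8 RPKM in Meninges tumors, at most 17.7 in Retro-orbital and 8.87 in Cheek tumors, and 15.3 in the Vestibular N tumor. Mag was 3.95 to 7.06 RPKM in Meninges tumors, at most 1.46 in Retro-orbital and 0.36 in Cheek tumors, and 2.47 and 1.56 in the Vestibular N and Trigeminal N tumors. Cnp was 11.9 to 18.1 RPKM in Meninges tumors, 9.15 to 16.5 in Retro-orbital tumors, 6.35 to 7.32 in Cheek tumors and 18.4 in the Vestibular N tumor. Mag thus separated the Meninges tumors from the Retro-orbital and Cheek tumors, as Smarcc2 and Smarcd3 did, while Mbp and Cnp overlapped with the Retro-orbital tumors. Gfap, the filament gene of astrocytes and other glia, was 65.1 to 260 RPKM in Meninges tumors and 0.32 to 0.59 in Cheek tumors. In Retro-orbital tumors 1 to 4, Gfap was 0.63, 0.31, 128 and 13.3 RPKM, beside Smarcc2 at 35.2, 34.4, 27.6 and 46.7 RPKM. Smarcd3 was 16.7, 13.4, 9.45 and 16.0 RPKM in these 4 tumors. The Trigeminal N tumor had Gfap at 81.5, Smarcc2 at 26.9 and Smarcd3 at 10.3 RPKM. The Vestibular N tumor had Gfap at 26.3, Smarcc2 at 46.7 and Smarcd3 at 28.3 RPKM. The 6 leukocyte markers summed to 618 to 1001 RPKM in Meninges tumors, 546 to 1176 in Retro-orbital tumors and 378 to 402 in Cheek tumors, with 6 of 6 above 1 RPKM in each location. The part of these cells in the members' differences was not tested.

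Pattern likeness between members was highest for the same 2 genes. Over the 12 tumors, Smarcc2 and Smarcd3 had a Pearson's r of 0.90 and a Spearman's rho of 0.86, the highest of the 28 pairs of members, and Smarcd3 was at place 18 of 15020 genes in the list for Smarcc2. In the 9 tumors outside the meninges, r was 0.83 and rho 0.82. Both coefficients are descriptions of a pair picked as the highest, over tumors that are not all independent. The member most like Smarca4 was Smarcd3 (r 0.69), the one most like Smarca2 was Smarcd2 (r 0.58) and the one most like Smarcc1 was Smarce1 (r 0.36). For both Smarcd2 (r 0.67) and Smarce1 (r 0.67) it was Smarca4, and for Smarcd1 it was Smarcd2 (r 0.56). Of the 28 pairs, 22 had a positive r (median 0.34), and 4 of the 6 negative pairs included Smarcc1. The Smarcc2 promoter printed above held none of the 4 motifs searched, so it could share none with that of Smarcd3.

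**Figure D5:**
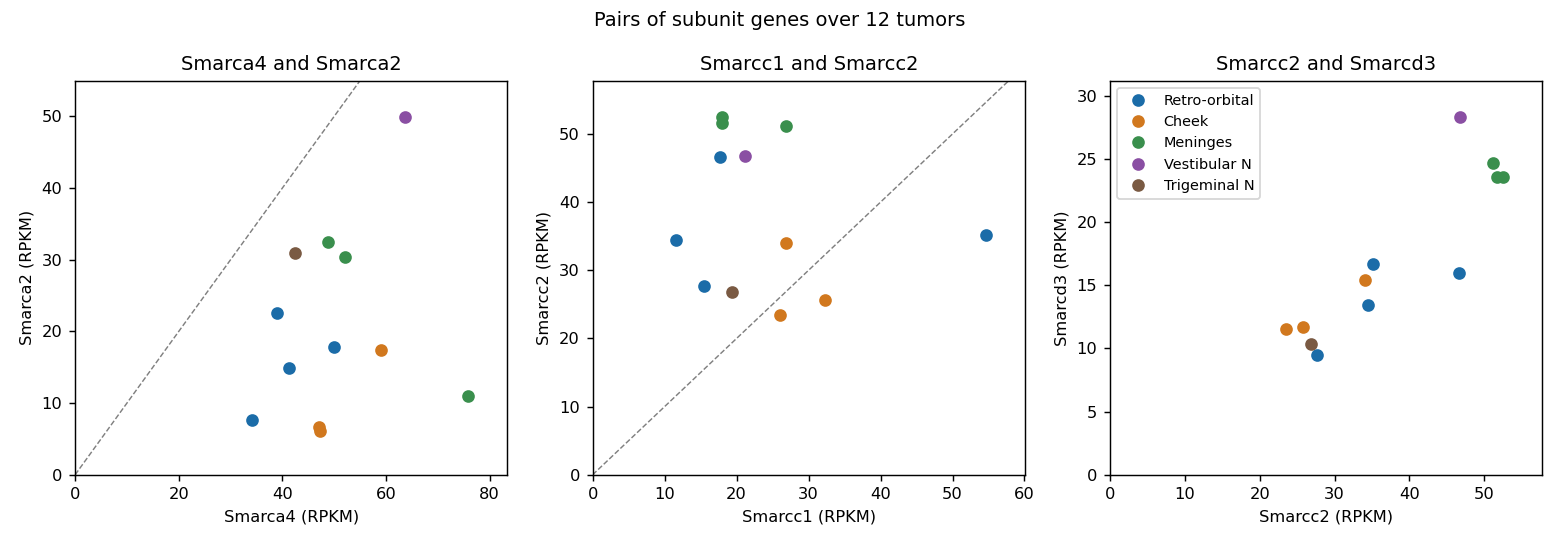
RPKM of pairs of members over the 12 tumors, 1 point per tumor coloured by location, with linear axes from 0. The grey dashed line marks equal levels. All tumors lie on the Smarca4 side of the line and 3 on the Smarcc1 side, and Smarcc2 and Smarcd3 rise together, with the Meninges and Vestibular N tumors at 46.7 to 52.5 and 23.5 to 28.3 RPKM.

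The ratios of the paralogs were also set beside 7 marker lists, as bulk tumors hold host cells in different amounts. None of the 21 relations passed an adjusted p of 0.05, and 3 had an unadjusted p under 0.05 for Pearson's r, of which 2 are given here. Without the 2 farthest tumors, 3 other relations had an unadjusted p under 0.05, of which 2 are given here. Among the nearest was the Smarcd1/Smarcd3 ratio with 6 proliferation genes (Pearson's r -0.61, permutation test, p = 0.035, adjusted p = 0.28; Spearman's rho -0.38, permutation test, p = 0.22, adjusted p = 0.54), with an r of -0.26 without the 2 farthest tumors (permutation test, p = 0.47). The Smarca4/Smarca2 ratio had an r of 0.61 with 6 skeletal muscle markers (permutation test, p = 0.040, adjusted p = 0.28; Spearman's rho 0.56, permutation test, p = 0.064, adjusted p = 0.54), which was 0.43 without the 2 farthest tumors (permutation test, p = 0.22). The Smarcc1/Smarcc2 ratio ran against 6 leukocyte markers (Pearson's r -0.56, permutation test, p = 0.063, adjusted p = 0.33; Spearman's rho -0.64, permutation test, p = 0.029, adjusted p = 0.54), and r was -0.75 without the 2 farthest tumors (permutation test, p = 0.012). With 5 neuron markers, the Smarcc1/Smarcc2 ratio had an r of 0.43 (permutation test, p = 0.16, adjusted p = 0.47). Spearman's rho was 0.34 (permutation test, p = 0.29, adjusted p = 0.55), and r was 0.77 without the 2 farthest tumors (permutation test, p = 0.014). The 5 neuron markers did not move together, so their mean is no clear measure of neurons. In Cheek tumors 2 and 3, Nefl was 412 and 335 RPKM, Snap25 25.5 and 25.4, and Stmn2 16.8 and 17.1. In the same tumors, Syt1 was 0.24 and 0.22 RPKM, and Rbfox3 0.06 and 0.02. The muscle markers summed to between 5.01 and 533 RPKM in a tumor. They did not move together, so their mean is no clear measure of muscle. In Meninges tumor 1, Myh1, Tnnt3 and Myh4 were 112, 165 and 3.30 RPKM, and Acta1, Ckm and Mylpf 0.79, 0.31 and 1.06. In the Vestibular N tumor, Myh1 and Myh4 were 100 and 27.3 RPKM. Acta1, Ckm, Mylpf and Tnnt3 were 1.68, 0.47, 1.40 and 2.26 RPKM there.

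The other 21 subunits of SWI/SNF complexes, a list that covers the ARID, bromodomain, actin-like, Bcl7 and SS18 families, were set beside the members. Of them 18 passed the filter on low values in the 10 tumors and 0 passed limma's F test (lowest adjusted p = 0.32) or any contrast. The highest by mean was Ss18 (54.0 ± 12.8 RPKM, SD, n = 12), at the level of Smarca4 and Smarce1. The lowest was Actl6b, the subunit of postmitotic neurons, listed at 0 in 6 tumors and at 0.58 RPKM at most. Their median difference was 0.31 in Meninges against Retro-orbital (16 of 18 higher) and 0.27 in Meninges against Cheek (14 of 18 higher), between that of the members and that of all genes. Groups did not overlap for 4 of 18 in Meninges against Retro-orbital (9.23% of all genes), 4 of 18 in Meninges against Cheek (28.7%) and 3 of 18 in Cheek against Retro-orbital (11.1%), and the difference between the lists was not tested.

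Genes on the opposite strand share exon bases with Smarcd3, Smarcc1, Smarca2 and Smarcd1. Whether the counting used the strand is not stated, although the libraries were stranded. Chpf2, opposite Smarcd3, was 13.7 to 31.5 RPKM and ran against it over the 12 tumors (Pearson's r -0.67, Spearman's rho -0.70, as a description). Dhx30, opposite Smarcc1, was 14.0 to 23.7 RPKM (r 0.50, rho 0.64), a narrower range than that of Smarcc1. For Smarca2, 4931403E22Rik was at most 1.39 RPKM. The genes opposite Smarcd1, Gm17349 and Gm34939, are not among the listed genes, so no values can be given for them.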

How the data were processed

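Total RNA of the 12 tumors was prepared as stranded, ribosome-depleted libraries and run as 1 pool. Per the labels and the study's methods, the authors aligned reads to mm10 with STAR, counted on RefSeq genes with HTSeq and deposited 1 RPKM value per gene and tumor, with no counts. Base calling used bcl2fastq 2.17 in the submitters' processing notes. Rows with a date in place of a symbol (27) were never named.

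Fragment totals and gene lengths were recovered from the RPKM values as whole numbers of fragments (tolerance 0.02; 15761 of 15764 genes searched, 99.98%). Location tests used limma 3.58.1 in R 4.3.3 on log2(RPKM + 1), with trended and robust prior variance, genes reaching 1 RPKM in 3 or more of the 10 tumors, and Benjamini-Hochberg adjustment at 0.05. Fold changes on this scale understate changes of low genes. Paralog ratios used a pseudocount of 0.1 with exact sign-flip tests (4096 patterns), and correlations used 100000 resamples (Python 3.11.15, scipy 1.17.1). Scripts were tested on simulated data. Positions are from GENCODE M21 on GRCm38, the build of mm10. The p-values measure the spread between these tumors. The members, lists and tests, and the rule to name all members and the 3 genes most like each ATPase, were chosen with earlier results of these data known. Pseudocount, filter, scaling, prior, block, gene length and left-out tumors were varied. The values of 1 marker list are not reported here.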

Additional observations from a re-analysis of the deposited data

Results flagged for a closer look

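Smarcc1 in Retro-orbital tumors was flagged because 1 of the 4 tumors stood far from the rest. Retro-orbital tumor 1 had 54.6 RPKM, and the others had 11.5, 15.5 and 17.7 RPKM, so the gap to the nearest tumor made up 0.857 of the whole range, above Dixon's 95% critical value for 4 samples. Of the 13 measures screened in this way, the 8 members and the 5 paralog ratios, 1 was flagged, where chance alone would flag about 0.65. The ratios are built from the members, so the 13 measures are not independent. The same tumor had the lowest Smarcd1 (6.16 RPKM) and Smarcd2 (19.9 RPKM) of all 12 tumors, while its Smarca4, Smarcc2 and Smarce1 lay within the range of the other Retro-orbital tumors.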

How the results depend on the processing

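No member passed in Cheek against Retro-orbital or in Meninges against Retro-orbital under any of the 19 alternatives to each. With the tumor identifier as a block, 3 members passed between locations and 4 in Meninges against Cheek, and leaving out 1 tumor at a time gave 0 to 1 in the latter. The number of all genes passing between locations was 6, and it was 10 with no filter on low values, 3 with a minimum of 5 RPKM, 19 with a plain prior variance, 2802 with the block, 1 with limma voom (chosen after seeing the data) and 0 to 198 over the fits that left out 1 tumor. The 5 paralog ratios kept their sign and their side of 0.05 with another pseudocount, with 1 value per identifier and without each tumor, and Smarca4 over Smarca2 moved to 0.14 with the shortest RefSeq transcripts and Smarcd1 over Smarcd3 to 0.30 with the longest transcripts, as the lengths themselves impose. No location range of a ratio passed under any alternative, although that of Smarca4 over Smarca2 ran from 0.90 to 1.82 without each tumor and that of Smarcd1 over Smarcd2 from 0.28 to 0.67, and they were 2.03 and 0.67 with medians. The correlation of Smarcd1 with Smarcd2 ran from 0.39 to 0.78 without each tumor, that of Smarcd1 with Smarcd3 from -0.23 to 0.28, and 0 to 1 of the relations with marker lists passed; the cause was not tested. The labels give no replicate numbers, and the identifier block above stands in for a paired fit. Each location held only 3 or 4 tumors, and Smarcc2 passed in Meninges against Cheek only with the block (limma adjusted p = 0.0027) and without Cheek tumor 1 (limma adjusted p = 0.040). The fit without Cheek tumor 1 left only Cheek tumors 2 and 3, whose identifiers began alike. Each member value rested on at least 266 fragments.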
